A study of Mus musculus with 4 samples.

Results

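Neurog1, Neurod1, Neurod4, Elavl3, Stmn2 and Tubb3 are genes that cells switch on in turn as they leave an epithelium and become neurons. They were taken from a written list and matched by Ensembl ID, and all 6 were found among the 27514 genes that the 4 deposited gene tables share. Their levels are given here in 4 single-cell libraries of mouse embryos, 1 library for each combination of stage and genotype. All embryos were on the Swiss Webster background and carried Tbx1Cre, a Cre recombinase knocked into the Tbx1 gene, together with 1 copy of Rosa26-GFPflox, so that cells with a history of Tbx1 expression were green. The control (Ctrl) genotype was Tbx1Cre/+;Rosa26-GFPflox/+ and therefore already lacked 1 working copy of Tbx1. The conditional knockout (cKO) genotype was Tbx1Cre/flox;Rosa26-GFPflox/+. At E8.5 the upper body was taken and at E9.5 the pharyngeal apparatus with the heart and the back. Living GFP-positive cells were sorted from pooled embryos, so an embryo is not a unit that can be counted. By the paper's account, fewer embryos were pooled for cKO than for Ctrl at both stages. The somite range of the cKO embryos also ended slightly later at both stages. A small difference in age therefore cannot be told apart from the genotype.

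In the cranial placodes, thickened patches of head ectoderm, Neurog1 and Neurog2 commit epithelial cells to a neuronal fate, and the committed neuroblasts delaminate and gather as the cranial sensory ganglia. The otic placode gives the neurons of the inner ear and the epibranchial placodes give visceral sensory neurons, which use Phox2a. Tbx1 is known for holding back neurogenesis in the otic epithelium. Neurog1 is a bHLH factor that starts this programme, and Neurod1 and Neurod4 are bHLH factors that carry it into differentiation. Elavl3 (HuC) is an RNA-binding protein of early neurons, Stmn2 a regulator of microtubules in growing neurites, and Tubb3 the tubulin of neurons.

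bHLH factors such as Neurog1 and Neurod1 bind E-boxes, DNA sites that read CANNTG on both strands. The promoters of 3 of the genes are shown because each holds this site: the founding factor, its partner in differentiation and a later neuronal gene. RefSeq start sites of GRCm38.p6 were used, with 250 bases before the start and 50 after it, written 5′ to 3′ on the minus strand of all 3 genes, with each E-box in capitals. The windows are chr13:56252131-56252430 for Neurog1, chr2:79456587-79456886 for Neurod1 and chr9:22051974-22052273 for Elavl3.
Neurog1: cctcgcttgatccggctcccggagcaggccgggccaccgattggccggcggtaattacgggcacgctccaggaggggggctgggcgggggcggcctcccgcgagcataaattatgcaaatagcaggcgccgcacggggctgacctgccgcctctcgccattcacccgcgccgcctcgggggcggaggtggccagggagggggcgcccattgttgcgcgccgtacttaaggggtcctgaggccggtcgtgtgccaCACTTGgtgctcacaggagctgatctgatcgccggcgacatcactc
Neurod1: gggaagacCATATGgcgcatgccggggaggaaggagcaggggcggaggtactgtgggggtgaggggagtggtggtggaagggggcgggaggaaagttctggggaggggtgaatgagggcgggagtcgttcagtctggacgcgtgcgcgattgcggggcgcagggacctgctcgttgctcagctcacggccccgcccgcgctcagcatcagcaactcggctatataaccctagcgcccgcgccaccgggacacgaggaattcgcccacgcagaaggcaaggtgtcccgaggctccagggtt
Elavl3: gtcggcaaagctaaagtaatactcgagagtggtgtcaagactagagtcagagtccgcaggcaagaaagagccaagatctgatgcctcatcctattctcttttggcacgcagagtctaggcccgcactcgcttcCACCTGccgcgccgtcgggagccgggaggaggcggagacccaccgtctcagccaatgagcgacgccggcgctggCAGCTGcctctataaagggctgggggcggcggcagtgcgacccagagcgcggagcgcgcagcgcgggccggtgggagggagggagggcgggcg
The E-box of Neurog1 begins 4 bases after the start and reads CACTTG, that of Neurod1 reads CATATG, and Elavl3 has one that reads CACCTG and another that reads CAGCTG. Of the 6 promoter windows that RefSeq gives for 5 of the genes, 4 hold the motif; of all 32851 windows of that length, 72.3% do, so the motif does not set these genes apart. Tubb3 and the first of the Neurod4 windows hold none, and Stmn2 has no window in the table.

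The Ctrl libraries held 1434 cells at E8.5 and 5453 at E9.5, the cKO libraries 1090 and 6266, and each had 25236185 to 104635590 unique molecular identifiers (UMIs, counted RNA molecules) in the shared genes. Levels are given in UPM, UMIs per 1000000 UMIs of the shared genes, with exact Poisson 95% intervals that cover counting error only. With 1 library per group there is no replicate, no test was possible, and the genotype cannot be told apart from the library. The cKO E9.5 library had also been counted on a gene table of its own, with 31053 genes against 27998 in the others. Tbx1 itself was not lower in the knockout libraries, at 86.4 UPM in Ctrl and 118 in cKO at E8.5, and at 103 and 134 at the later stage. A floxed transcript can keep the end that this method reads, so these values do not check the deletion. From 13 to 72 barcodes of each library also occurred in another library.

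At E8.5 the transcription factors were barely detected. Neurog1 gave 1 UMI in Ctrl and 20 in cKO, and all 20 lay in 1 ungated cell that also held 16 UMIs of Tubb3, 3 of Elavl3 and 1 each of Neurod1 and Neurod4. Neurod1 gave 3 UMIs in each library, and Neurod4 gave 0 in Ctrl and 1 in cKO. The 0 allows a level of up to 0.119 UPM, taking 3 UMIs as the limit. Beyond that single cell no group of cells with Neurog1 or Neurod1 could be compared between the genotypes at this stage.

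The 3 later genes were measurable at E8.5. Elavl3 stood at 0.277 UPM in Ctrl (interval 0.112 to 0.572) and 0.389 in cKO (0.186 to 0.715), which overlap. Stmn2 stood at 2.22 (1.68 to 2.88) and 4.90 (4.08 to 5.83), a log2 ratio of cKO over Ctrl of 1.14 (0.68 to 1.62). At least as many of the 126 Stmn2 UMIs in cKO lay in 7 cells as in all others together, and 45 of them lay in the 11 cells of the neural gate described below. Tubb3 went the other way: its level was 6.97 (5.98 to 8.08) in Ctrl but 4.86 (4.04 to 5.79) in cKO, with the log2 ratio at -0.52 (-0.86 to -0.18). By gate, as described below, it was -0.77 (-1.21 to -0.35) in mesodermal cells but 0.91 (0.25 to 1.57) in ungated cells, where 16 of the 42 cKO UMIs lay in the single Neurog1 cell. Among all 13709 genes with at least 10 UMIs in both libraries together, 4.17% were 2-fold or more higher in cKO at E8.5, and of the 4 members with that many UMIs, Neurog1 and Stmn2 were, the first through the single cell.

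In Ctrl, 5 of the 6 genes were higher at E9.5 than at E8.5. Neurog1 went from 1 UMI to 472 UMIs, or 5.01 UPM (4.57 to 5.48). Neurod1 went from 3 UMIs to 502, or 5.32 UPM (4.87 to 5.81), and Neurod4 from 0 to 242, which is at least 21.6-fold higher. Elavl3 was 2.68 log2 units higher (1.61 to 4.02) and Tubb3 1.34 (1.11 to 1.57). Stmn2 was the exception, lower at E9.5 than at E8.5 with a log2 ratio of -0.56 (-1.01 to -0.09). The dissected tissue differed between the stages, so stage and tissue cannot be told apart, and of all genes counted 18.2% were 2-fold or more higher at E9.5 in Ctrl, as were 5 of the 6 members.

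At E9.5 all 6 genes were higher in cKO than in Ctrl when every cell was summed. Neurog1 gave 472 UMIs in Ctrl and 1144 in cKO, that is 5.01 and 10.9 UPM, a log2 ratio of 1.13 (0.97 to 1.28). Neurod1 gave 502 and 1822 UMIs, that is 5.32 and 17.4 UPM, and a log2 ratio of 1.71 (1.57 to 1.85). Neurod4, which follows Neurod1, differed least among the transcription factors, with 242 and 450 UMIs and a log2 ratio of 0.74 (0.52 to 0.98). For the genes of the neuronal cytoplasm, Elavl3 gave 168 and 511 UMIs, a log2 ratio of 1.45 (1.20 to 1.71). Stmn2 gave 142 and 769, the highest ratio of the 6 at 2.29 (2.03 to 2.56), and at least as many of the cKO UMIs lay in 10 cells as in all others together. Tubb3 gave 1660 and 3483, a log2 ratio of 0.92 (0.83 to 1.0). None of the 6 pairs of intervals overlapped at this stage, but these intervals leave out variation between cells as well as between libraries. Neurog1, Neurod1, Elavl3 and Stmn2, 4 of the 6, passed 2-fold, against 4.21% of 16138 genes counted. The median log2 ratio was 1.29 for the members and -0.26 for all genes counted, so the members are 0.26 log2 units further from the typical gene than their ratios show.

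**Figure D1:**
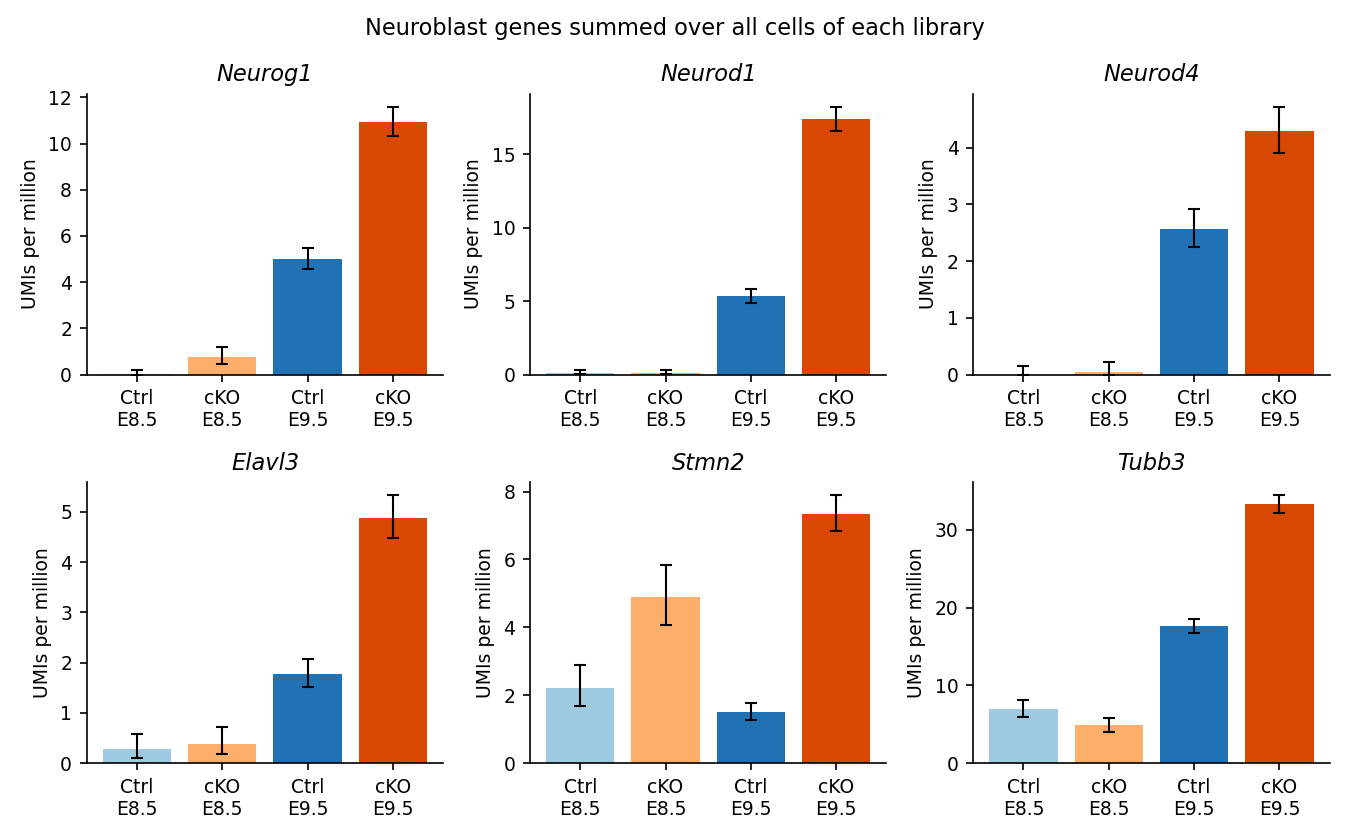
Level of each gene over all cells of a library, in UPM, with a bar per library and exact Poisson 95% intervals as error bars. All 6 genes stood highest in cKO E9.5, while at E8.5 Stmn2 was higher and Tubb3 lower in cKO than in Ctrl.

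The difference at E9.5 lay mostly in how many cells held the genes, except for Stmn2. To compare libraries of unlike depth, the UMIs of every cell were drawn down to 10000, which left out 555 shallower cells of Ctrl and 718 of cKO. Neurog1 was then found in 1.88% of Ctrl cells (exact binomial interval 1.52 to 2.30) and 4.65% of cKO cells (4.11 to 5.24). Neurod1 was found in 0.919% (0.671 to 1.23) and 2.74% (2.33 to 3.20), and Neurod4 in 0.653% (0.447 to 0.921) and 1.33% (1.05 to 1.67). Elavl3 was found in 0.796% and 1.55%, Stmn2 in 0.735% and 2.05%, and Tubb3 in 4.47% and 6.51% of cells. Without thinning the shares of Neurog1 were 2.46% and 6.05%, and those of Neurod1 1.08% and 3.16%. Split this way on the log2 scale, the share of Neurog1 cells was 1.30 higher in cKO and the UMIs per positive cell 0.22 lower, with means of 3.52 and 3.02 UMIs. For Stmn2 the share was 1.13 higher and the UMIs per positive cell 1.11 higher, with means of 2.12 and 4.58 UMIs. Elavl3 and Tubb3 lay between, with shares 0.86 and 0.53 higher and UMIs per positive cell 0.54 and 0.34 higher.

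Part of these shares is background. Cells with at least 3 of 6 endothelial markers should lack the programme. After thinning they held Neurog1 in 2 of 383 cells in Ctrl (0.522%, 0.0633 to 1.87) and 1 of 101 in cKO (0.990%, 0.0251 to 5.39). These shares were below the 1.88% and 4.65% of all cells. The Ctrl interval overlaps that of all cells, however, and the cKO interval includes 4.65%. For Neurod1 the endothelial counts were 1 of 383 and 1 of 101, and for Neurod4 0 of 383, which allows up to 0.783%, and 1 of 101. The interval of 1 of 101 also includes the 2.74% and 1.33% of all cKO cells for these genes. Elavl3 was at 0 of 383 in Ctrl but 2 of 101 (1.98%, 0.241 to 6.97) in cKO. Its 1.55% share of all cKO cells was therefore not above this background, which rests on few cells. Stmn2 was different, at 10 of 383 endothelial cells (2.61%) in Ctrl and 7 of 101 (6.93%) in cKO, above its share of all cells, so single Stmn2 UMIs do not mark neuroblasts in these libraries. Summed without thinning over 409 Ctrl and 115 cKO endothelial cells, the genes other than Neurod4 were higher in cKO. The log2 ratio was 3.05 (0.24 to 6.51) for Neurog1 on 2 and 4 UMIs. It was 4.51 (2.31 to 7.72) for Neurod1 on 2 and 11, and 4.19 (2.98 to 5.62) for Tubb3 on 7 and 31. In cKO 1 cell held all 11 Neurod1 UMIs and 1 cell held 28 of Tubb3. Elavl3 had 0 and 6 UMIs, Neurod4 0 and 1, and Stmn2 3.92 (2.70 to 5.51) and 9.34 (5.62 to 14.6) UPM. Among cells with at least 3 of 6 cardiomyocyte markers, Tubb3 was found after thinning in 9 of 142 (6.34%, 2.94 to 11.7) in Ctrl. In cKO it was found in 9 of 99 (9.09%, 4.24 to 16.6). Both were above its share of all cells, with intervals that include that share, though it was in 2 of 383 and 1 of 101 endothelial cells. Single Tubb3 UMIs therefore do not mark neuroblasts either. The other genes were in few cardiomyocyte-marker cells after thinning, at most 2 of 142 in Ctrl and 3 of 99 in cKO, both for Stmn2. In these Ctrl cells Neurod1 (7.63 UPM), Elavl3 (3.44) and Stmn2 (9.54) stood higher than over all Ctrl cells, mostly through 1 cell per gene. Stmn2 was lower there in cKO, at a log2 ratio of -2.25 (-4.23 to -0.71), as was Tubb3 at -0.94 (-1.60 to -0.32). Neurog1 was higher, at 2.40 (0.07 to 5.67) on 2 and 8 UMIs. Of the 340 cells with Tubb3 in Ctrl, 239 had a single UMI, and of the 565 in cKO, 381 did. Median depth per cell was 16567 UMIs in Ctrl and 15888 in cKO.

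The genes were also counted together in single cells. At least 3 of the 6 genes were detected in 40 of 5453 Ctrl cells, or 0.734% (0.525 to 0.998), and in 125 of 6266 cKO cells, or 1.99% (1.66 to 2.37). After thinning the counts were 35 of 4898, or 0.715%, and 105 of 5548, or 1.89%. All 6 genes were present in 4 cells of Ctrl and 30 of cKO. At E8.5 no Ctrl cell and 4 cKO cells reached 3 genes. Cells that held exactly 1 of the genes were far more common, 458 in Ctrl and 801 in cKO at E9.5.

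**Figure D2:**
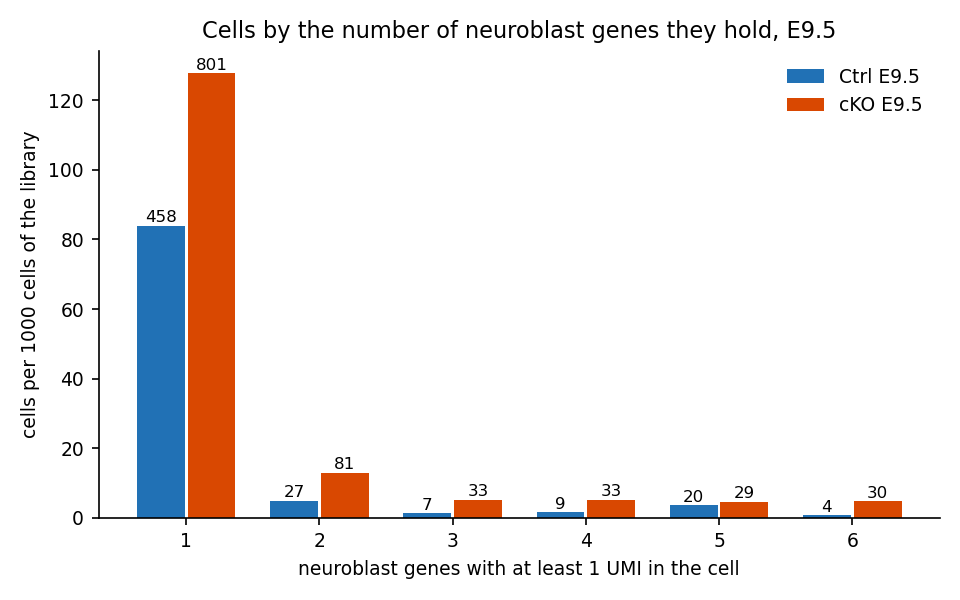
Cells of the E9.5 libraries by how many of the 6 genes had at least 1 UMI in them, as cells per 1000 cells of the library, with the number of cells above each bar. The cKO bars are taller in every class, and cells with all 6 genes numbered 4 in Ctrl and 30 in cKO.

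The genes were found together far more often than their single shares would give. After thinning, Neurod1 and Neurod4 met in 29 Ctrl cells, where the product of their shares gives 0.294 cells, and in 66 cKO cells, where it gives 2.03. Nearly every Neurod4 cell was also a Neurod1 cell, 90.6% in Ctrl and 89.2% in cKO. Neurog1 and Neurod1 met in 31 and 99 cells, which is 68.9% and 65.1% of the Neurod1 cells but 33.7% and 38.4% of the Neurog1 cells. Neurog1 and Stmn2, the first and one of the last genes of the series, met in 3 Ctrl cells and 25 cKO cells, or 4.44 and 4.72 times the product, against 98.6 and 32.6 times for Neurod1 and Neurod4. These counts describe cells of 1 library each, and cells with more RNA show more of every gene.

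Cells were then grouped by Neurog1 and Neurod1, counting a factor as present from 2 UMIs on. In Ctrl 41 cells had Neurog1 alone, 30 had both and 9 had Neurod1 alone, and in cKO the counts were 91, 106 and 30. As shares of the library, the cells with both were 0.550% (0.371 to 0.784) in Ctrl and 1.69% (1.39 to 2.04) in cKO, and after thinning 0.470% and 1.23%. The other 4 genes did not define these states and differed sharply between them. In Ctrl, Tubb3 stood at 154 UPM in cells with Neurog1 alone, 1568 in cells with both and 1253 in cells with Neurod1 alone, against 4.95 in cells with neither. In cKO the same order gave 15.2, 939 and 1256, against 6.10. Elavl3 followed Tubb3, from 28.4 to 158 and 155 in Ctrl and from 3.16 to 150 and 225 in cKO. In cells with Neurog1 alone the 103 Tubb3 UMIs of Ctrl lay in 4 of 41 cells and the 24 of cKO in 13 of 91, so the higher Ctrl level there belongs to few cells. Most of these cells, 30 of 41 in Ctrl and 67 of 91 in cKO, were in the mesodermal gate described below, while of the cells with both factors 1 of 30 and 28 of 106 were.

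Within the cells that held both factors, the neuronal genes were not uniformly higher in cKO. Elavl3 differed by a log2 ratio of -0.08 (-0.41 to 0.27), an interval that includes 0. Neurod4 was lower in cKO, at 332 and 159 UPM and a log2 ratio of -1.06 (-1.32 to -0.80), and Tubb3 was lower by -0.74 (-0.85 to -0.63). Stmn2 went the opposite way by a wide margin, with 7 UMIs in 2 of 30 Ctrl cells and 396 UMIs in 27 of 106 cKO cells, a log2 ratio of 3.90 (2.84 to 5.22). In cells with Neurod1 alone Stmn2 stood at 229 UPM in Ctrl (159 to 320) and 275 in cKO (236 to 320), but only 2 of 9 and 12 of 30 cells held it.

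**Figure D3:**
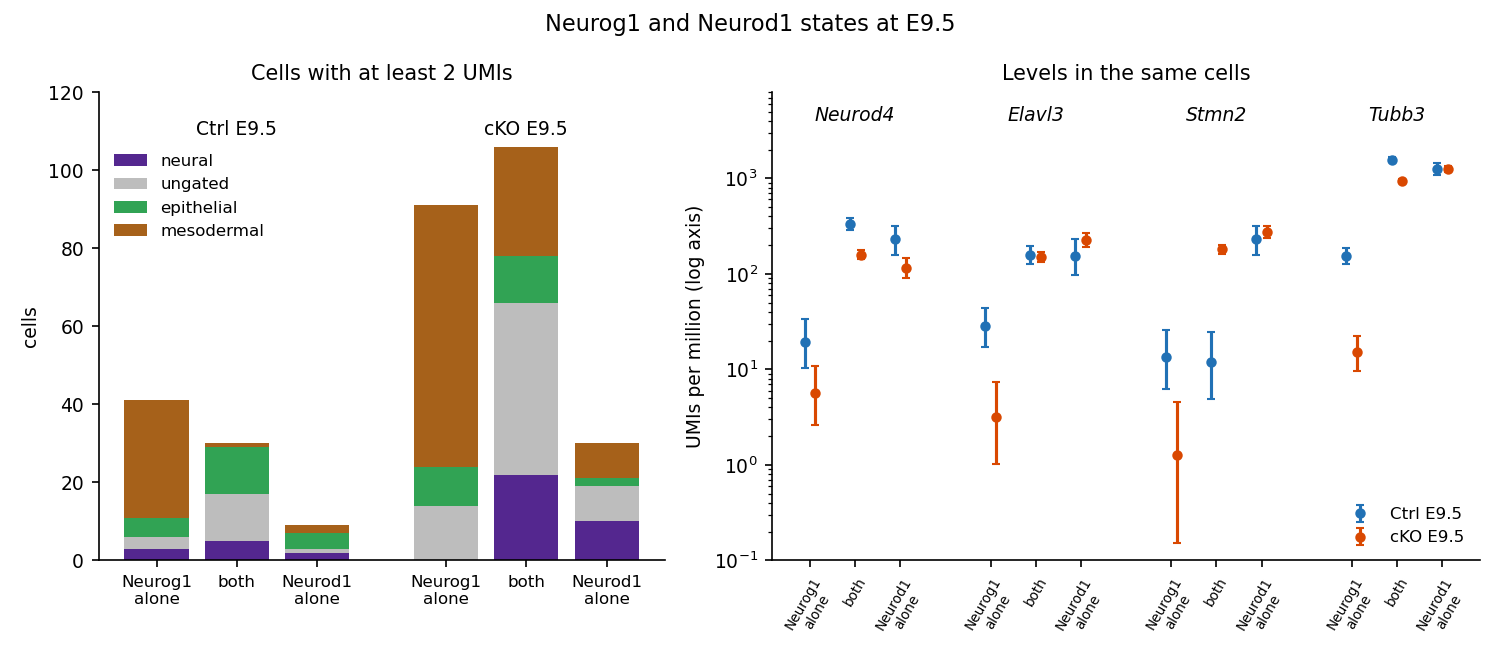
Left, cells of the E9.5 libraries with at least 2 UMIs of Neurog1 alone, of both Neurog1 and Neurod1, or of Neurod1 alone, coloured by marker gate. Right, levels of the 4 other genes in the same cells in UPM on a log axis with exact Poisson 95% intervals. Cells with both factors numbered 30 in Ctrl and 106 in cKO, and in them Stmn2 was higher and Neurod4 lower in cKO.

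What else these cells expressed was examined with genes that the grouping did not use. Of the cells with both factors, 25 of 30 in Ctrl (83.3%, 65.3 to 94.4) and 64 of 106 in cKO (60.4%, 50.4 to 69.7) held Phox2a, a factor of epibranchial and autonomic neurons, against 1.27% and 1.11% of cells with neither factor. Isl1, a factor of sensory and motor neurons that the paper also uses as a marker of cardiopharyngeal mesoderm, was found in 96.7% and 85.8%. Of the cells with neither factor, 34.0% in Ctrl and 19.7% in cKO also held Isl1. Neurog2, the founding factor of the epibranchial placodes, was found in 76.7% and 53.8%, against 1.34% and 0.828%. Insm1, a zinc finger factor of early neurons, was found in 60% and 69.8%, against 0.112% and 0.530%. Pou4f1, a factor of somatic sensory neurons, was found in 43.3% and 19.8%. At least 3 of 8 markers of the otic epithelium were found in 0 of the 30 Ctrl cells and 1 of the 106 cKO cells, against 76 of 5373 and 11 of 6039 cells with neither factor. Of these markers, Pax2 was found in 6.67% of the cells with both factors in Ctrl and 5.66% in cKO, against 0.614% and 0.199% of cells with neither, and Pax8 in 13.3% and 9.43%, against 4.32% and 5.0%. Oc90 was at 0 in the cells with both factors, but was found in only 9 Ctrl cells and 1 cKO cell with neither. At least 3 of the 6 neural tube markers were found in 0 and 2 of the cells. Tbx1 was found in 36.7% and 38.7% of these cells, against 65.6% and 68.4% of cells with neither factor.

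Levels per UMI of these genes in the cells with both factors differed in both directions. Phox2a was lower by -0.87 log2 units (-1.06 to -0.67), Isl1 by -0.91 (-1.11 to -0.72), Neurog2 by -0.87 (-1.06 to -0.67) and Pou4f1 by -2.02 (-2.64 to -1.40). Insm1 did not differ beyond counting error, at 0.08 (-0.35 to 0.53). Tbx1 was higher in cKO at 1.24 (0.40 to 2.19). The mesenchymal gene Twist1 was found in 10.0% of the Ctrl cells and 26.4% of the cKO cells with both factors, and its part in these values was not tested.

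**Figure D4:**
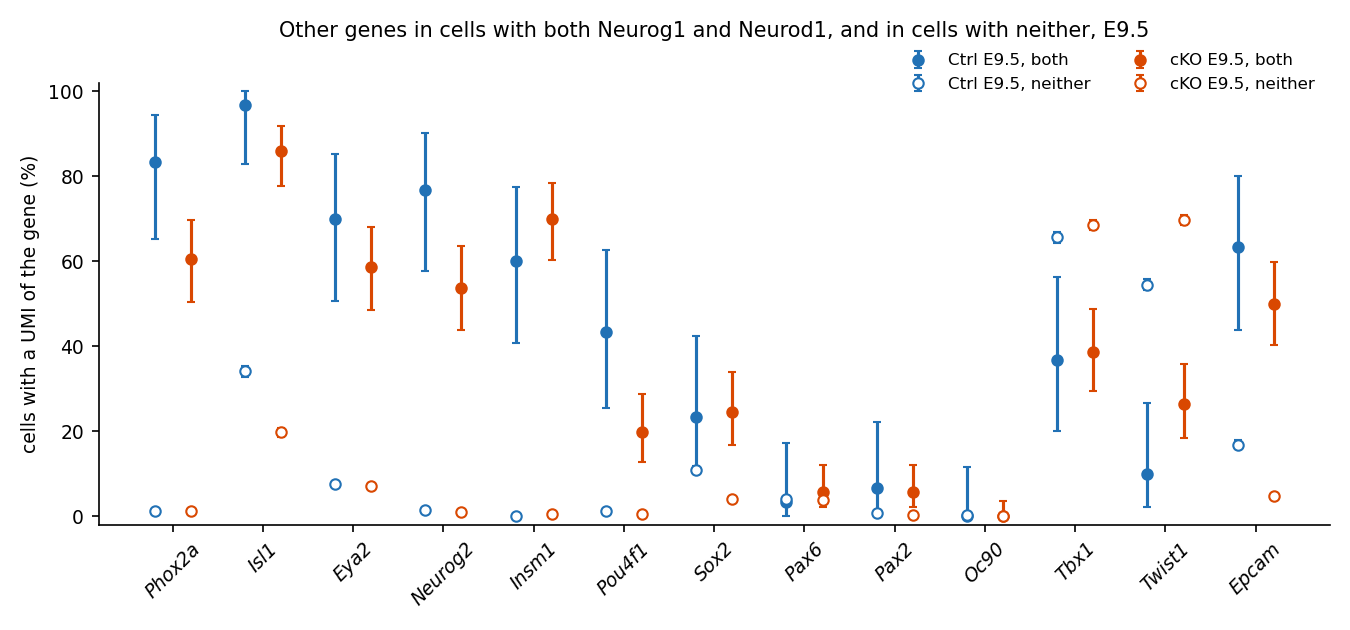
Share of cells, in percent, with at least 1 UMI of each gene at E9.5, for cells with at least 2 UMIs of both Neurog1 and Neurod1 (filled) and cells with neither (open), with exact binomial 95% intervals. Phox2a, Isl1, Neurog2 and Insm1 were far more frequent in cells with both factors than in cells with neither.

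To place the genes by tissue, cells were gated with 3 lists of 12 markers each. A cell joined the neural, epithelial or mesodermal gate when at least 3 markers of that list were detected and at least 2 more than of either other list, and was otherwise left ungated. At E9.5 the neural gate held 67 Ctrl cells (1.23%, Wilson interval 0.969 to 1.56) and 49 cKO cells (0.782%, 0.592 to 1.03). The epithelial gate held 743 (13.6%, 12.7 to 14.6) and 195 (3.11%, 2.71 to 3.57), and the mesodermal gate 3784 (69.4%) and 5444 (86.9%). The labels give pharyngeal mesoderm as the source of every library, and the epithelial and neural gates show that other tissues were sorted with it. At E8.5 the neural gates held 13 and 11 cells and the epithelial gates 15 and 13, too few to describe the factors. The neural list holds neuronal genes such as Dcx and Elavl4, so neuroblasts enter that gate by the same programme that the members belong to.

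All 6 genes had their highest level in the neural gate in both E9.5 libraries and their lowest in the mesodermal gate. For Neurog1 the order in Ctrl was 37.4 UPM in the neural gate (27.1 to 50.4), 11.3 in the epithelial gate (9.60 to 13.2), 8.09 in ungated cells (6.68 to 9.71) and 2.40 in the mesodermal gate (2.04 to 2.81), where the epithelial and ungated intervals overlap. In cKO the order was 149 in the neural gate, 39.8 in ungated cells, 32.8 in the epithelial gate and 6.34 in the mesodermal gate. Neurod1 stood at 143 (122 to 166) in the neural gate, 15.0 in ungated cells, 7.57 in the epithelial gate and 0.293 in the mesodermal gate of Ctrl, and at 747, 80.1, 37.9 and 4.66 in cKO. The later genes were more closely tied to the neural gate: Elavl3 stood at 68.8 there in Ctrl and 324 in cKO, but at 1.21 and 2.67 in the epithelial gate. Stmn2 stood at 48.8 and 523 in the neural gate and at 2.57 and 4.0 in the epithelial gate.

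**Figure D5:**
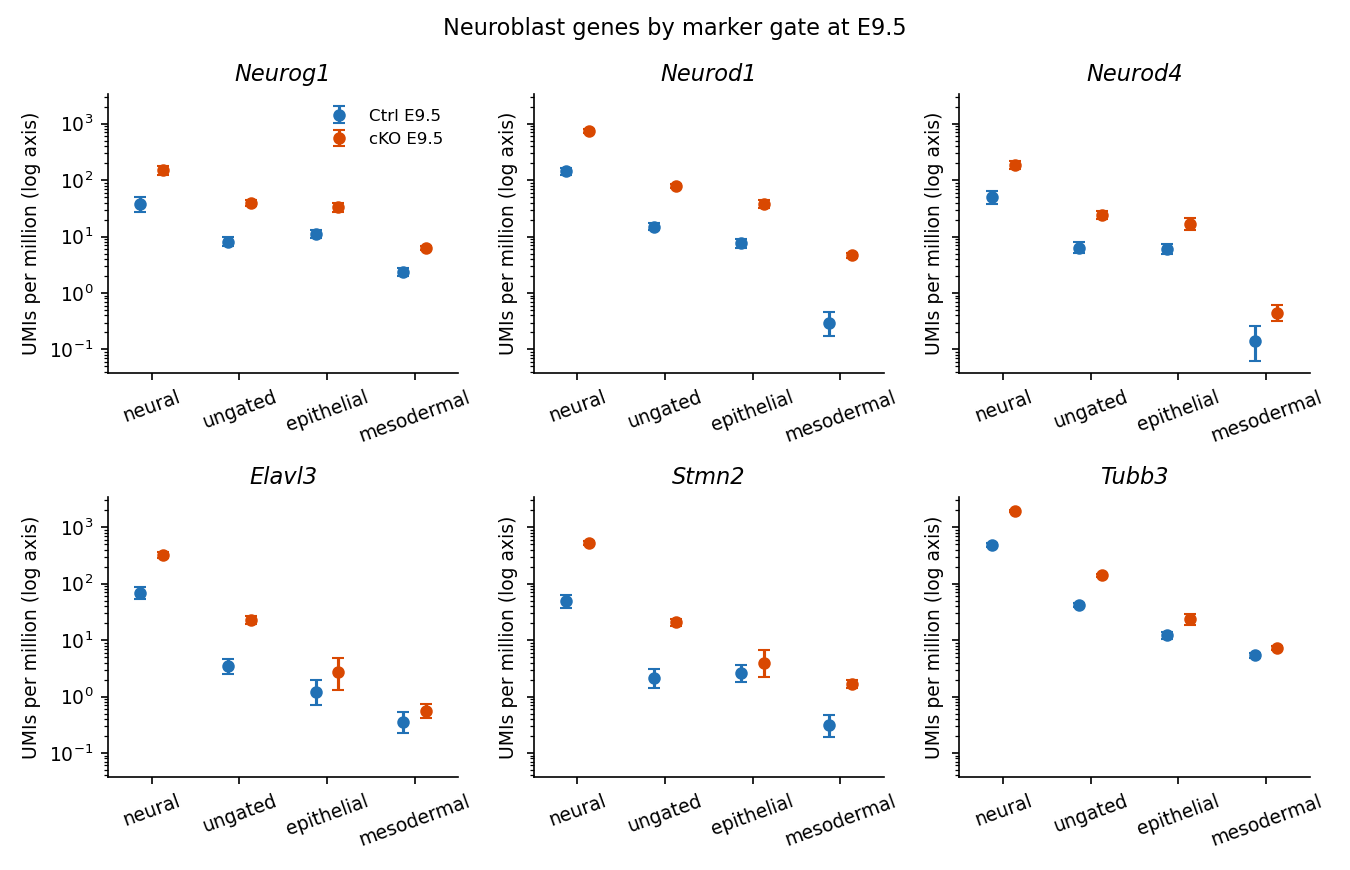
Level of each gene by marker gate at E9.5, in UPM on a log axis, with exact Poisson 95% intervals. The cKO values lie above the Ctrl values in all 4 gates for every gene, with overlapping intervals for Elavl3 in the epithelial and mesodermal gates and for Stmn2 in the epithelial gate.

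In the neural gate all 6 genes were more than 2-fold higher in cKO, where 7.85% of 9220 genes counted were higher and 16.6% lower by that much. The log2 ratios ran from 1.92 (1.47 to 2.38) for Neurod4 to 3.42 (3.02 to 3.85) for Stmn2. The gate did not hold the same cells in both libraries, however. Sox2, a marker of neural progenitors, was detected in 61 of the 67 Ctrl cells (91.0%) and 14 of the 49 cKO cells (28.6%). At least 3 of 6 neural tube markers were found in 11 Ctrl cells and 0 cKO cells, and at least 3 of 6 sensory neuron markers in 6 and 31. The summed level of the neural tube list was 275 UPM in Ctrl and 75.3 in cKO, and that of the sensory neuron list 244 and 707. In the mesodermal gate the neural tube list summed to 97.2 and 66.1 UPM and the sensory neuron list to 178 and 145. The cKO neural tube value is therefore near that of mesodermal cells. In the cells without Sox2, 6 in Ctrl and 35 in cKO, Neurog1 stood at 160 (87.2 to 268) and 156 (127 to 189) UPM and Neurod1 at 935 (743 to 1160) and 888 (817 to 963). There the log2 ratio was -0.034 for Neurog1, -0.074 for Neurod1, -1.04 for Neurod4, 0.16 for Elavl3, -0.41 for Tubb3 and 1.78 for Stmn2, so in these cells only Stmn2 was still more than 2-fold higher in cKO. In the cells with Sox2, 61 in Ctrl and 14 in cKO, Neurog1 stood at 27.3 (18.3 to 39.3) and 126 (80.0 to 189) UPM and Neurod1 at 77.3 (61.5 to 96.0) and 241 (175 to 324), with separate intervals. The other genes had overlapping intervals in these cells. Neurod4 at 14.1 and 27.4 and Elavl3 at 45.3 and 65.8 were higher in cKO. Stmn2 at 36.8 and 21.9 and Tubb3 at 253 and 159 were lower. With the 6 neuronal markers left out of the gate, the ratio was 0.32 for Neurog1, -0.98 for Elavl3 and 0.40 for Tubb3.

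In the epithelial gate the 3 transcription factors and Tubb3 had intervals above 0. Neurog1 was 1.54 log2 units higher in cKO (1.19 to 1.89), Neurod1 2.32 (1.95 to 2.70) and Neurod4 1.47 (0.97 to 1.95). Their UMIs in Ctrl and cKO were 158 and 123 for Neurog1, 106 and 142 for Neurod1, and 85 and 63 for Neurod4. The gate held 743 cells in Ctrl and 195 in cKO, so Neurog1 and Neurod4 had fewer UMIs in cKO though higher levels. The part of the smaller gate in these ratios was not tested. Elavl3, with 17 and 10 UMIs, and Stmn2, with 36 and 15, had intervals that include 0, at 1.13 (-0.15 to 2.34) and 0.64 (-0.34 to 1.54). Tubb3, with 171 and 87 UMIs, had 0.92 (0.54 to 1.31). With the neuronal markers left out of the neural gate, the epithelial ratio was 1.97 for Neurog1, 2.84 for Neurod1, 2.80 for Elavl3, 2.47 for Stmn2 and 2.03 for Tubb3. The members past 2-fold numbered 4, Elavl3 among them on few UMIs, against 3.95% of genes counted in this gate.

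The epithelium was divided further by 8 otic and 8 endodermal markers. Otic epithelium numbered 67 cells in Ctrl and 10 in cKO, endoderm 228 and 39, and other epithelium 448 and 146. In otic epithelium Neurog1 gave 11 UMIs in Ctrl, all in 1 cell, and 2 in cKO, a log2 ratio of 0.60 (-2.61 to 2.80). Neurod1 gave 0 UMIs in the 67 Ctrl cells, which allows up to 1.99 UPM, and 15 in the 10 cKO cells, all in 1 cell. In endoderm none of the 3 transcription factors had a UMI in Ctrl, which allows up to 0.694 UPM. Neurog1 and Neurod1 had 4 and 8 in cKO, all in 1 of the 39 cells. Most UMIs of the 3 transcription factors in the epithelial gate therefore lay in the other epithelium, while 14 of the 36 Stmn2 UMIs of Ctrl did. Neurog1 there stood at 18.0 (15.2 to 21.2) and 43.1 UPM and was found, after thinning, in 4.99% (3.11 to 7.52) and 12.1% (7.24 to 18.7) of cells. Of the cells there with at least 2 UMIs of Neurog1 or Neurod1, 16 of 20 in Ctrl and 19 of 22 in cKO held Phox2a. A difference in otic neurogenesis was not detectable at this depth with 10 otic cells in cKO.

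The mesodermal gate held most of the cells and a part of the signal of the early factors. Neurog1 was found after thinning in 1.36% (1.0 to 1.81) of its cells in Ctrl and 3.35% (2.86 to 3.89) in cKO, and Neurod1 in 0.174% and 1.20%. The log2 ratio was 1.40 (1.14 to 1.66) for Neurog1 and 3.99 (3.33 to 4.74) for Neurod1, with 19 UMIs in 11 cells of Ctrl against 430 UMIs in 89 cells of cKO. For Neurod1 it was 3.30 with a lead of 1 marker, 2.87 without the neuronal markers and 2.65 when thinned cells were gated, and for Neurog1 0.96 in the last case. Single UMIs made up 51 of the 82 Neurog1 cells in Ctrl and 153 of the 248 in cKO, while 4 and 36 cells had at least 5. Of the cells with at least 2 UMIs of either factor, 33 in Ctrl and 104 in cKO, Phox2a was found in 3.03% and 12.5% and Twist1 in 75.8% and 72.1%. Twist1 is a marker of this gate, so its share is high in part by construction. Elavl3 stood at 0.354 and 0.564 UPM in the gate, with overlapping intervals. Neurog1, Neurod1, Neurod4 and Stmn2, 4 of the 6, passed 2-fold, against 4.64% of genes counted. The mesodermal list includes Prrx2, which was detected in 93.3% of the Ctrl cells and 83.0% of the cKO cells with both factors. It was about as frequent in cells with neither factor, at 87.3% and 87.4%, so it does not set the cells with both factors apart.

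Cells in no gate held 34.3% of the Neurod1 UMIs in cKO, equal to the neural gate, and 42.4% in Ctrl. All 6 members passed 2-fold there, against 5.57% of genes counted, with log2 ratios from 1.76 (1.61 to 1.90) for Tubb3 to 3.29 (2.72 to 3.90) for Stmn2. Of the ungated cells with at least 2 UMIs of Neurog1 or Neurod1, 16 in Ctrl and 67 in cKO, Phox2a was found in 68.8% and 49.3% and Epcam in 31.2% and 40.3%, with 2.69 and 2.09 of the 12 neural markers on average.

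The wider programme was read from 4 lists of 80 genes in all that do not hold the members. In the neural gate at E9.5, 22 of the 27 neurogenic transcription factors had at least 10 UMIs, of which 15 were 2-fold or more higher and 2 lower in cKO, with a median log2 ratio of 1.64 against -0.23 for all genes counted there, of which 7.85% were higher and 16.6% lower by as much. Ebf3 and Isl2, factors of differentiating neurons, had ratios of 2.81 (1.76 to 4.03) and 2.64 (1.76 to 3.63). Atoh1, a proneural factor of other lineages, had -2.94 (-6.07 to -0.90). Over all cells 7 of 24 genes were 2-fold or more higher and 2 lower, with a median of 0.07, against 4.21% higher, 11.3% lower and a median of -0.26 for all genes counted.

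Of the 15 genes of Notch lateral inhibition, the signal by which a neuroblast keeps its neighbours from the same fate, 11 were counted in the neural gate, 2 higher and 3 lower by 2-fold with a median of 0.09, beside the 7.85% higher and 16.6% lower of all genes in this gate. The ligand Dll1 was lower at -2.54 (-4.92 to -0.82) and the modifier Lfng at -2.50 (-3.69 to -1.50), while Mfng stood at 1.49 (1.03 to 1.97) and Hes6, a target of the proneural factors, at 1.56 (1.32 to 1.81). Of 18 genes of neuronal structure 14 were counted, 7 higher and none lower, with a median of 0.81, beside the same shares of all genes. Nefl, a neurofilament, had 2.12 (1.87 to 2.39) and Rtn1, a reticulon of the neuronal endoplasmic reticulum, 2.11 (1.79 to 2.44), while Dpysl3 had -0.58 (-1.43 to 0.23) and Tubb2a -0.34 (-0.92 to 0.23). The change in makeup of the gate given above moved with all of these, and its part was not tested. Only 5 of the 20 otic patterning genes were counted in the neural gate, where Tbx3 had 2.12 (0.74 to 3.73), Tbx1 1.63 (0.35 to 3.04), Sox9 -0.91 (-2.41 to 0.42) and Fgf3 -0.70 (-2.01 to 0.50). Over all cells 12 of the 20 were 2-fold or more lower in cKO and none higher, with a median of -1.46, against 11.3% lower, 4.21% higher and a median of -0.26 for all genes counted. This stood beside 67 otic cells in Ctrl and 10 in cKO, whose part was not tested.

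The 6 genes followed each other across tissues. Over 15 groups of at least 20 cells, made of gates and libraries, each gene's profile of log2 level correlated with their mean profile at Pearson r of 0.932 to 0.983. The mean includes the gene itself, the neural gate is set partly by neuronal markers, and the groups share libraries and depth. The correlations are therefore high in part by construction and are only a description. The genes outside the members and markers most like the mean were Tlx2 (0.985), Sct (0.981), Tagln3 (0.980), Rgs4 (0.978) and Insm1 (0.976). For 5 of the single members the nearest were Gadd45a for Neurog1 (0.961), Sct for Neurod1 (0.989), Ppp1r17 for Elavl3 (0.998), Onecut1 for Stmn2 (0.978) and Rgs4 for Tubb3 (0.981). Among the members the closest pair was Neurod1 and Neurod4 at 0.986, and the most distant Neurog1 and Stmn2 at 0.820.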

How the data were processed

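Each of the 4 libraries was a droplet library (10x 3′) of sorted GFP-positive cells, and per the labels the authors made the deposited count matrices, whole UMI counts per gene and cell, for which the submitters' processing notes name Cell Ranger 3.1.0 and mm10. No further filter was applied here, doublets were removed only as an alternative, and the 27514 Ensembl IDs found in all gene tables were used. Reads of the 3′ end are counted, so a level says nothing of where a transcript is cut. Counts were summed over the cells of a gate and library and divided by the UMIs of the shared genes. Intervals of levels are exact Poisson, those of log2 ratios exact conditional binomial, those of shares exact binomial (Clopper-Pearson) or, for gates, Wilson. A sum of 0 was replaced by 3 UMIs for bounds, and no ratio was given where both sums were 3 or less. A gene was counted in a comparison with at least 10 UMIs in both groups together, and called past 2-fold. Cells were thinned to 10000 UMIs with seed 1. Python 3.11.15 with numpy 2.4.6 and scipy 1.17.1 was used, with edgeR 4.0.16 in R 4.3.3 for TMM factors alone. The code was tested on simulated data. From each of the 4 wider lists, the genes with the 2 highest and 2 lowest log2 ratios in the neural gate at E9.5 were named. Some genes that these rules reach are not reported here. Likeness is Pearson's r over log2(UPM + 10). The alternatives were other gate rules, cell filters, doublet removal, scalings, thinning depths and count minimums. The members and lists were chosen with earlier results of these data known. Promoters came from a RefSeq table of the same build, and no other genome sequence was used.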

Additional observations from a re-analysis of the deposited data

Results flagged for a closer look

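Tubb3 stood out because its difference between genotypes had opposite signs at the 2 stages. Over all cells its log2 ratio of cKO over Ctrl was -0.52 at E8.5 and 0.92 at E9.5, and over mesodermal-gated cells it was -0.77 and 0.45. In ungated cells it was 0.91 at E8.5 and 1.76 at E9.5, with the same sign. None of the intervals includes 0, but each covers the counting error of 1 library per group, and the difference between the stages was not tested.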

How the results depend on the processing

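Of the alternatives run, the log2 ratios of cKO over Ctrl at E9.5 stayed above 0 in 36 of 36 values over all cells, 66 of 66 in the epithelial gate, 66 of 66 in the mesodermal gate and 65 of 70 in the neural gate. Values that moved past their interval follow. Over all cells, TMM scaling gave 1.39 for Neurog1, 1.97 for Neurod1, 1.0 for Neurod4 and 1.18 for Tubb3. Leaving out doublets gave 1.48 for Neurod1, 1.17 for Elavl3, 2.01 for Stmn2 and 0.74 for Tubb3. Without the neural gate, Neurod4 had 0.51, Stmn2 1.79 and Tubb3 0.59. In the neural gate, a lead of 1 marker gave 0.97 for Neurog1, 1.76 for Neurod1, 1.248 for Neurod4 and 1.54 for Tubb3. Without its neuronal markers Neurog1 had 0.32, Elavl3 -0.98, Stmn2 1.19 and Tubb3 0.40. With Prrx2 left out of the mesodermal list, Neurog1 had 1.11, Neurod1 1.91 and Tubb3 1.76. Gating thinned cells gave 2.81 for Neurod1 and 2.45 for Tubb3. Without the cells holding Sox2, Neurog1 had -0.034, Neurod1 -0.074, Neurod4 -1.04, Tubb3 -0.41, Elavl3 0.16 and Stmn2 1.78. TMM gave 2.19 for Tubb3.

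In the epithelial gate, leaving out the neuronal markers gave 1.97 for Neurog1, 2.84 for Neurod1, 2.80 for Elavl3, 2.47 for Stmn2 and 2.03 for Tubb3. Gating thinned cells gave 2.96 for Neurod1 and 1.5 for Tubb3, doublet removal 2.62 for Neurod4 and a minimum of 4 markers 0.41 for Tubb3. In the mesodermal gate, gating thinned cells gave 0.96 for Neurog1 and 2.65 for Neurod1, a lead of 1 marker 3.30 for Neurod1 and TMM 0.68 for Tubb3. Without the neuronal markers Neurod1 had 2.87 there, Elavl3 1.54 and Tubb3 0.71. Between stages in Ctrl, Neurod4 had 3.63 without doublets and 4.11 with TMM, both bounds, and Tubb3 1.01 with TMM.

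The difference in positive cells, in percentage points, was 1.44 for Neurog1, 0.50 for Stmn2 and 0.81 for Tubb3 at 2 UMIs or more. Thinned to 5000 UMIs it was 1.85 for Neurog1 and 0.68 for Stmn2, and with no thinning 3.59 for Neurog1. The mesodermal gate differed by 19.2 points without Prrx2. At 30 UMIs or more, 0 neurogenic factors were lower over all cells and 0 in the neural gate, and 0 otic genes higher there. At 1 UMI or more, 1 neuronal structure gene and 1 otic gene were lower there. With TMM, 1 neuronal structure gene was higher and 0 lower over all cells. The 2-fold calls are values of size, with no test, and the cause of these moves was not tested.

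The alternatives without Prrx2, without Sox2 cells and without the neural gate were chosen after seeing the data. No paired analysis was possible because each group is 1 library, and leaving out a library leaves nothing to compare. The neural gate held 67 and 49 cells and the otic epithelium 67 and 10, which limits the precision there.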
